A study of Mus musculus with 4 samples.

Results

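The transcripts of the mitochondrial genome were followed through an RNA immunoprecipitation (RIP) of LARP7 from adult mouse testis. All gene models whose symbol starts with mt- were taken, 37 of the 50600 models in each library. They comprise 22 tRNA models (mt-T symbols), 2 rRNA models (mt-Rnr1 and mt-Rnr2) and 13 protein-coding models. There were 4 libraries in 2 groups, 2 from LARP7 antibody beads and 2 from beads with a non-specific IgG, all from testes of C57BL/6 mice 8 weeks old. No genotype, treatment or transgene sets the groups apart, only the antibody. The IgG libraries measure RNA that stays on the beads without LARP7. Tissue was opened with detergent in 150 mM NaCl, antibody-coated beads were kept in the lysate for 4 h and washed in 500 mM NaCl, and the sequencing libraries were selected for RNAs of 15 to 300 nt. The series describes the replicates as biological but does not say whether separate animals were used. The adjusted p-values therefore set the difference between antibodies against a spread between libraries that may in part be technical. How far a difference would hold across animals is not measured.

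The mouse mitochondrial genome carries the tRNAs and rRNAs of the organelle's own ribosomes and mRNAs for core subunits of the respiratory chain and ATP synthase. Both strands are transcribed as long precursors. Many tRNAs lie between the other genes, and cutting at their ends by mitochondrial RNase P and ELAC2 releases the rRNAs and mRNAs. LARP7 is a La-related protein known for binding the 3′ ends of the nuclear 7SK and U6 RNAs, and the mitochondrial transcripts are made in another compartment.

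Libraries held 6918040 and 6502682 counts with the LARP7 antibody, against 6994514 and 4411271 with IgG. The 7SK model Rn7sk, the known partner, had 316542 and 931240 counts with the LARP7 antibody, against 38611 and 61786 with IgG. All 7 germ cell markers looked up (such as Prm1, Tnp2 and Ddx4) were detected, and 4 of 5 epididymis markers were at 0 in every library. Sertoli and Leydig cell markers were present, and so were 4 of 5 blood markers, which summed to 3.32 and 1.69 counts-per-million (CPM) of the library total with the LARP7 antibody, against 10.4 and 7.48 with IgG. The germ cell markers summed to 213 and 167 CPM of the library total with the LARP7 antibody, against 1617 and 1425 with IgG. This lower level of testis mRNA markers moved with the lower mitochondrial values below, and its part in them was not tested.

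The mitochondrial transcripts as a whole took a smaller part of the LARP7 libraries. The tRNA, rRNA and mRNA models together held 0.128% and 0.0851% of the counts with the LARP7 antibody, against 1.70% and 1.13% with IgG. The rRNA models held 0.101% and 0.0670% with the LARP7 antibody, against 1.46% and 0.948% with IgG. The mRNA models held 0.0137% and 0.00654% with the LARP7 antibody, against 0.183% and 0.161% with IgG. The tRNA models held 0.0138% and 0.0116% with the LARP7 antibody, against 0.0560% and 0.0175% with IgG. In all 3 classes both LARP7 libraries lay below both IgG libraries, with the narrowest gap for the tRNAs. On this scale the same held, model by model, for 63.9% of all models tested. An exact two-sided permutation test of 2 libraries against 2 cannot go below p = 0.33. These are parts of a library total, so less mitochondrial RNA on the beads and more of other RNAs cannot be told apart.

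Within the mitochondrial counts, where the scaling between libraries plays no role, the balance of the classes differed between the antibodies. The tRNA models made up 10.8% and 13.6% of mitochondrial counts with the LARP7 antibody (95% Clopper-Pearson intervals 10.2 to 11.5 and 12.7 to 14.5). With IgG they made up 3.29% and 1.56% (intervals 3.19 to 3.39 and 1.45 to 1.67). The means were 12.2% ± 1.97 and 2.42% ± 1.22 (SD, n = 2 each). The rRNA models made up 78.5% and 78.7% with the LARP7 antibody, against 86.0% and 84.1% with IgG. The mRNA models made up 10.7% and 7.69% with the LARP7 antibody, against 10.8% and 14.3% with IgG. All 3 shares separated the groups, the mRNA share by a margin smaller than the spread between replicates, and each had an exact permutation p of 0.33, the smallest that this design allows. The intervals cover counting error only. They leave out how reads that map to several models were divided, which affects mt-Atp6, mt-Co2, mt-Co3 and mt-Nd4l most (described below). For mt-Co2 in LARP7 replicate 1 the expected count was 0.24 and the posterior mean count 82.0. The separation of the mRNA share is therefore not settled. The tRNA share separated the groups without mt-Ty too, at 7.43% and 11.2% with the LARP7 antibody, against 3.29% and 1.56% with IgG.

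**Figure D1:**
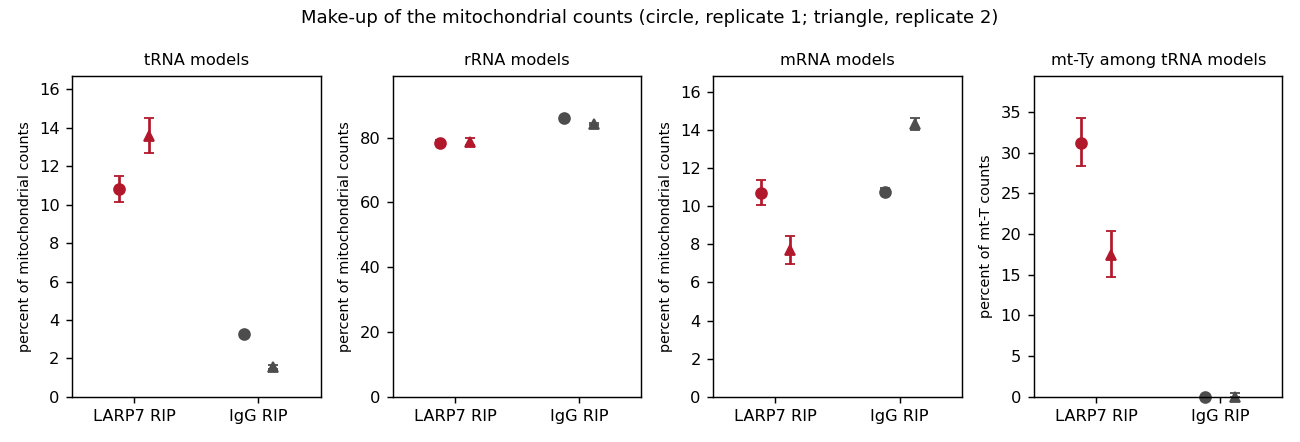
Share of mitochondrial counts held by the tRNA, rRNA and mRNA models, and share of mt-T counts held by mt-Ty, as percent (y axes from 0), in the LARP7 RIP and the IgG RIP. Points are libraries and bars are 95% Clopper-Pearson intervals. The tRNA share was 10.8% and 13.6% with the LARP7 antibody, against 3.29% and 1.56% with IgG, and mt-Ty held 31.2% and 17.4% of mt-T counts with the LARP7 antibody, against 0.0255% and 0 with IgG.

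One tRNA had the largest log2 fold change and the smallest adjusted p of the mitochondrial models tested. The tyrosine tRNA mt-Ty (ENSMUSG00000064350.1, GRCm38.p6 chromosome MT, 5260 to 5326, 67 nt) had 299 and 131 counts in the LARP7 libraries, against 1 and 0 in the IgG libraries. It was plentiful in both LARP7 libraries and at the edge of detection in both IgG libraries. The 0 of IgG replicate 2 allows up to 0.680 CPM of its total, from a limit of 3 counts. The summed counts, 430 in the LARP7 libraries against 1 in the IgG libraries, gave a ratio of 1002 after scaling by trimmed mean of M values (TMM), with a 95% counting interval of 179 to 39670. With plain library totals the ratio was 365, with an interval of 65.2 to 14467. Both intervals cover counting error only and leave out the spread between libraries. The edgeR quasi-likelihood test gave a log2 fold change of 9.59 (SE 0.90, adjusted p = 0.00122), a value that depends on the prior count because IgG is near 0. The call held under every alternative run, with log2 fold changes of 5.85 to 11.04, the lowest on log2(TPM + 1). mt-Ty passed the filter on low counts through the LARP7 libraries alone, so its passing the filter already required a difference. Its pattern in these libraries was also known when it was chosen, so the adjusted p and the repeated calls are descriptive only.

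Set against the other tRNAs of the same libraries, mt-Ty stood near the top of the order with the LARP7 antibody and near the bottom with IgG. It ranked first of the 22 tRNA models by count in LARP7 replicate 1 and had rank 3 in LARP7 replicate 2, against rank 19 in IgG replicate 1. It made up 31.2% and 17.4% of mt-T counts with the LARP7 antibody (95% intervals 28.3 to 34.3 and 14.8 to 20.3). With IgG it made up 0.0255% and 0 (upper limits 0.142 and 0.475). The means were 24.3% ± 9.77 and 0.0128% ± 0.0181 (SD, n = 2 each). The groups lay far apart, while the 2 LARP7 libraries themselves differed by more than their counting intervals; the exact permutation p was 0.33, the smallest possible. Relative to the summed counts of the other 21 tRNA models, mt-Ty was 1577-fold higher with the LARP7 antibody (95% counting interval 282 to 62422). This ratio pools the libraries of each antibody, and its interval leaves out the spread between libraries. With IgG the other tRNA models had 3916 counts in replicate 1 and 774 in replicate 2, so replicate 1 weighs most.

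The order of the leading tRNAs in the LARP7 libraries was the same by count and per length, all tRNA models being 59 to 75 nt long. Per 100 nt of model length mt-Ty had 446 and 196 counts with the LARP7 antibody, against 1.49 and 0 with IgG. mt-Th, the histidine tRNA, had 412 and 212 with the LARP7 antibody, against 1149 and 190 with IgG. mt-Ts2, a serine tRNA known for lacking the D-arm of the usual cloverleaf, had 390 and 559 with the LARP7 antibody, against 3732 and 451 with IgG. In LARP7 replicate 1 the 3 tRNAs were close, in LARP7 replicate 2 mt-Ts2 was above the other two, and in the IgG libraries mt-Ty was far below both. In LARP7 replicate 1 the counting intervals of the shares of mt-Ty and mt-Th overlapped (28.3 to 34.3 and 26.0 to 31.8).

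The tRNAs next to mt-Ty did not share its pattern. mt-Tc, the cysteine tRNA, ends 2 nt before mt-Ty, and mt-Tn and mt-Ta, for asparagine and alanine, lie on the other side of mt-Tc; in the mouse all 4 are transcribed from the same strand. mt-Tc had 0 and 1 counts with the LARP7 antibody, against 22 and 20 with IgG. It fell, with a log2 fold change of -4.12 (SE 1.26, edgeR adjusted p = 0.0328), a call that leaving out LARP7 replicate 1 (-3.32), leaving out LARP7 replicate 2 (-7.22) or leaving out IgG replicate 2 (-3.60) ended. DESeq2 gave mt-Tc no adjusted p. mt-Tc passed the filter on low counts through the IgG libraries alone, so its passing the filter already required a difference. The other neighbouring tRNAs, mt-Ta and mt-Tn, were not tested. mt-Ta had 1 and 2 counts with the LARP7 antibody, against 13 and 5 with IgG. mt-Tn had 0 in both LARP7 libraries, against 6 and 0 with IgG. Together the 3 neighbours had 1 and 3 counts in the LARP7 libraries, against 41 and 25 in the IgG libraries, the opposite order to mt-Ty. mt-Co1, which starts 1 nt beyond the other end of mt-Ty, was lower with the LARP7 antibody (values below). The posterior SD of the count was 0 for mt-Ty and every other tRNA model in all libraries, so no read was divided between models for these values; whether counting used the strand is not given in the sources used here, so antisense reads cannot be told apart from those of mt-Ty or its neighbours.

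Few models in the table fell within bounds on the counts drawn around those of mt-Ty, which mt-Ty meets by construction. Of all 50600 models, 1258 had at least 100 counts in both LARP7 libraries, and 4 of these had at most 1 count in both IgG libraries, bounds set after mt-Ty was seen. The others were Gm22823 and Gm26295, models of 107 nt, and the microRNA precursor Mir92-1 of 80 nt. Unlike mt-Ty, these had counts that were not whole, so reads were divided between models. With IgG, Gm22823 had 0 and 0.91 counts and Gm26295 had 0 and 0.29. How far that division set their IgG counts was not tested. Among 1310 models of 50 to 80 nt outside the mitochondrial genome, 107 had at least 100 counts in both LARP7 libraries, and 1 of them met the IgG bound. Among the 37 mitochondrial models, 6 had at least 100 counts in both LARP7 libraries, and mt-Ty alone met the IgG bound.

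**Figure D2:**
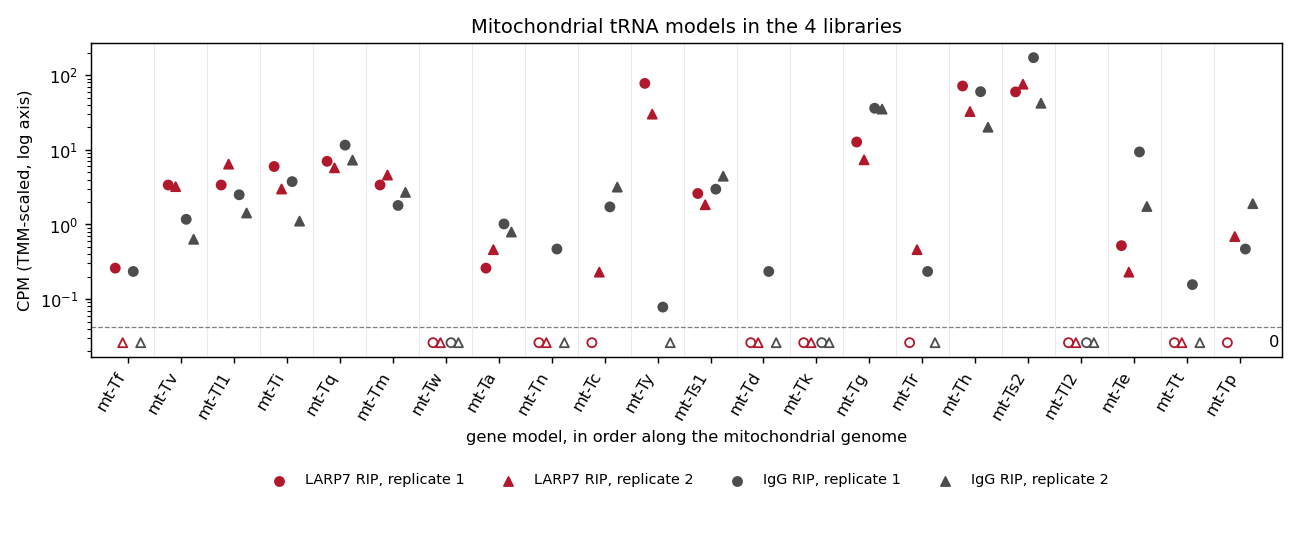
CPM on a log axis, after TMM scaling, of the 22 mitochondrial tRNA models in their order along the genome, with LARP7 libraries in red, left of the IgG libraries in grey, and open symbols under the dashed line at 0. mt-Ty was at 77.7 and 30.1 with the LARP7 antibody, against 0.0781 and 0 with IgG, whereas for mt-Th and mt-Ts2 the groups overlapped.

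No other tRNA was called higher with the LARP7 antibody, and 3 were called lower. mt-Ts2, mt-Th and mt-Tg, the glycine tRNA, held 58.0% and 67.0% of mt-T counts with the LARP7 antibody, against 87.7% and 79.5% with IgG. mt-Tg had 49 and 32 counts with the LARP7 antibody, against 462 and 222 with IgG, which is 12.7 and 7.34 against 36.1 and 35.1 TMM-scaled CPM, the scale of CPM values from here on. It fell 3.55-fold (edgeR: log2 fold change -1.83, SE 0.42, adjusted p = 0.0155), and missed the threshold without LARP7 replicate 2 (-1.48, adjusted p = 0.0716). As a share of mt-T counts mt-Tg was 5.12% and 4.26% with the LARP7 antibody, against 11.8% and 28.7% with IgG. mt-Te, the glutamate tRNA, had 2 and 1 counts with the LARP7 antibody, against 120 and 11 with IgG (edgeR: log2 fold change -3.89, SE 1.05, adjusted p = 0.0257). The IgG libraries differed widely for mt-Te, and its call ended when either LARP7 library was left out (-4.55 without replicate 1, -3.40 without replicate 2). Without IgG replicate 2 mt-Te was at -4.56, and without IgG replicate 1 it did not pass the filter. mt-Te, mt-Tc and mt-Ts1 passed the filter through the IgG libraries alone.

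mt-Th and mt-Ts2 passed no threshold with TMM scaling. mt-Th had 276 and 142 counts with the LARP7 antibody, against 770 and 127 with IgG, or 71.7 and 32.6 CPM against 60.1 and 20.1 CPM. mt-Ts2 had 230 and 330 counts with the LARP7 antibody, against 2202 and 266 with IgG, or 59.8 and 75.7 CPM against 172 and 42.1 CPM. For both, the groups overlapped on the CPM scale and IgG replicate 1 was several times above IgG replicate 2. The log2 fold changes were 0.37 for mt-Th (SE 0.60, edgeR adjusted p = 0.669) and -0.66 for mt-Ts2 (SE 0.65, edgeR adjusted p = 0.473). With library totals both were called lower (-1.18 and -2.17, adjusted p = 0.0489 and 0.000979), so the direction for mt-Th turned with the scaling. Without IgG replicate 1 the value for mt-Ts2 was 0.68.

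Among the scarcer tRNAs, mt-Tv, mt-Tl1, mt-Tm and mt-Ti (valine, a leucine, methionine and isoleucine) had positive log2 fold changes that missed the threshold, from 0.82 to 1.80. mt-Tv had 13 and 14 counts with the LARP7 antibody, against 15 and 4 with IgG (edgeR adjusted p = 0.101). For mt-Tl1, mt-Tm and mt-Ti the sign turned with library totals (-0.13, -0.53 and -0.70), and for mt-Tv with limma on log2(TPM + 1) (-0.44). mt-Tq, the glutamine tRNA, had 27 and 25 counts with the LARP7 antibody, against 148 and 46 with IgG (log2 fold change -0.57, edgeR adjusted p = 0.382). mt-Ts1, the other serine tRNA, had 10 and 8 counts with the LARP7 antibody, against 38 and 28 with IgG (-0.73, edgeR adjusted p = 0.426); both were called lower with library totals (-2.04 and -2.12). mt-Tp, the proline tRNA, was not tested and had 0 and 3 counts with the LARP7 antibody, against 6 and 12 with IgG. At under 10 counts in every library were 8 tRNA models; mt-Tw, mt-Tk and mt-Tl2 (tryptophan, lysine and the other leucine tRNA) had 0 in all 4 libraries, which allows up to 0.429 to 0.680 CPM of the library total, and mt-Tf, mt-Td, mt-Tn, mt-Tr and mt-Tt summed to 1 and 2 counts with the LARP7 antibody, against 17 and 0 with IgG.

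In the fit over all 12234 models tested, 26 of the 37 mitochondrial models passed the filter, and of these 1 was called higher and 13 lower with the LARP7 antibody at an adjusted p of 0.05. Over all models tested 14.5% were called higher and 9.69% lower. Among the 26, mt-Ty passed the filter through the LARP7 libraries alone, and 4 (mt-Tc, mt-Te, mt-Ts1 and mt-Atp8) through the IgG libraries alone. Except for mt-Ts1, each of these was called in the direction that its passing the filter already required. By class, 1 of 12 tRNAs tested was higher and 3 lower, both rRNAs were lower, and 8 of 12 mRNAs tested were lower and 0 higher. The median log2 fold change was -0.10 for the tRNAs, -2.31 for the rRNAs and -2.70 for the mRNAs, beside -0.05 over all models. Library totals shifted the median of all models to -1.47 and called 47.1% of them lower and 3.95% higher. Under that scaling 20 of the 26 mitochondrial models were lower and mt-Ty alone was higher, and the class medians were -1.61, -3.78 and -4.22. The rRNAs and mRNAs thus lay below the median of all models under both scalings. The tRNA median lay near it, but over single TMM values from -4.12 to 9.59. That median moved with the rule: -0.75 with no filter (-0.05 over all models) and -2.47 with limma on log2(TPM + 1) (-1.21 over all models). Without IgG replicate 1 it was 0.62 (0.06 over all models).

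The size of this excess of lower calls varied with the rule, as did the background, while mt-Ty was the only mitochondrial model called higher under each of the rules run. Without LARP7 replicate 2, 5 of 29 mitochondrial models tested were lower, all 5 of them mRNAs (over all models 1.38% were lower and 4.62% higher). Without LARP7 replicate 1, 10 of 29 were lower (6.29% and 9.7%). Without IgG replicate 1 the count was 12 of 26 (6.28% and 12.2%), and without IgG replicate 2 it was 14 of 28 (6.32% and 15.2%). With no filter 15 of 34 were lower (5.13% and 7.56%), and DESeq2 gave 12 of 26 (5.96% and 14%). Posterior mean counts gave 15 of 27 (11% and 15.9%), and the replicate block gave 14 of 26 (11.5% and 17.1%). Where no scaling beyond the library size or TPM was used, a much larger share of all models was lower: limma on log2(TPM + 1) gave 21 of 27 (55.4% and 3.95%), and the replicate block with library totals gave 17 of 26 (44.4% and 4.31%). Without regard to a test, both LARP7 libraries lay above both IgG libraries in TMM-scaled CPM for 4 of the 26 models and below for 18, where 32.9% and 35.5% of all models did. With library totals 1 lay above and 20 below, where 9.7% and 63.9% did.

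**Figure D3:**
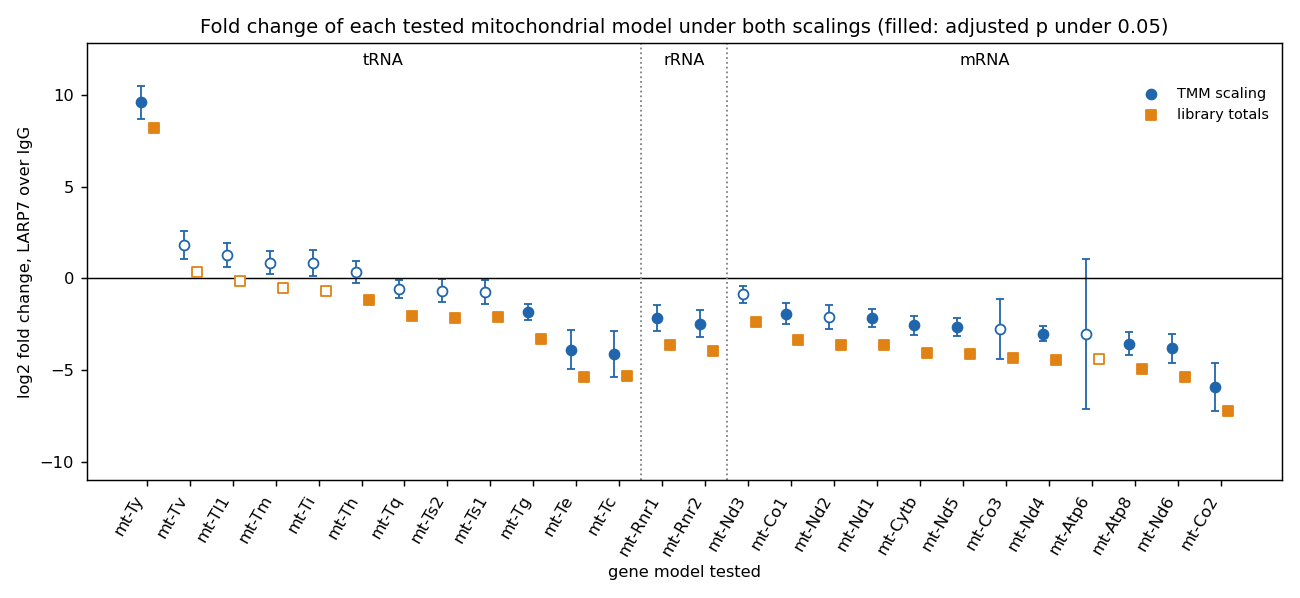
Log2 fold change (LARP7 over IgG) of the 26 mitochondrial models tested, by class, with TMM scaling (blue circles, bars are 1 SE) and with library totals (orange squares); filled symbols passed the adjusted threshold. mt-Ty was at 9.59, a value that depends on the prior count, and both rRNAs and all 12 mRNAs lay below 0 under both scalings.

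The rRNAs of the mitochondrial ribosome had the most counts of all members in every library. Per 100 nt of model length, mt-Rnr2 led with IgG, at 5102 and 1900 counts. With the LARP7 antibody it had 312 and 200, below mt-Th (412 and 212) and mt-Ts2 (390 and 559). mt-Rnr1, the small-subunit rRNA (MT, 70 to 1024, 955 nt), had 2020 and 1185 counts with the LARP7 antibody, against 21682 and 11761 with IgG. Its mean was 398 ± 179 CPM with the LARP7 antibody and 1777 ± 118 CPM with IgG (SD, n = 2 each). By edgeR its log2 fold change was -2.16 (SE 0.69, adjusted p = 0.0446). mt-Rnr2, the large-subunit rRNA (MT, 1094 to 2675, 1582 nt), had 4933 and 3171 counts with the LARP7 antibody, against 80707 and 30056 with IgG. Its mean was 1005 ± 392 CPM with the LARP7 antibody and 5530 ± 1096 CPM with IgG (edgeR: log2 fold change -2.46, SE 0.75, adjusted p = 0.0371). Both fell with non-overlapping groups, but near the threshold: leaving out LARP7 replicate 1 (-2.72 and -2.94) ended both calls, as did leaving out LARP7 replicate 2 (-1.76 and -2.11). Both models are longer than the selected inserts, so their reads come from pieces of these RNAs. Per length, mt-Rnr2 had 1.47 and 1.62 times the counts of mt-Rnr1 with the LARP7 antibody, against 2.25 and 1.54 times with IgG, a ratio whose ranges overlapped (exact permutation p = 0.667).

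Of the 12 mitochondrial mRNAs of the respiratory chain and ATP synthase that were tested, 8 fell, where 9.69% of all models tested did. All 12 had negative log2 fold changes under both scalings, beside medians over all models of -0.05 with TMM and -1.47 with library totals. In CPM, 11 of the 12 had both LARP7 libraries below both IgG libraries (over all models, 35.5% did). All 13 mRNA models together had 948 and 425 counts with the LARP7 antibody, against 12807 and 7123 with IgG. All but mt-Atp8 (204 nt) and mt-Nd4l (297 nt) are longer than the selected inserts, so their reads come from pieces of these RNAs. The falls that passed the threshold ranged from 3.77-fold (mt-Co1) to 60.2-fold (mt-Co2). The size for mt-Co2 is uncertain, as described below.

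Of the 7 subunits of complex I, the NADH dehydrogenase, that the mitochondrial genome encodes, mt-Nd1, mt-Nd4, mt-Nd5 and mt-Nd6 fell. mt-Nd4 had 24.3 and 22.0 counts with the LARP7 antibody, against 565 and 296 with IgG (8.05-fold lower, log2 fold change -3.01, SE 0.42, edgeR adjusted p = 0.00325). mt-Nd5 had 59 and 33 counts with the LARP7 antibody, against 1047 and 384 with IgG (-2.64, SE 0.51, edgeR adjusted p = 0.00900). For both genes every IgG library lay far above both LARP7 libraries in CPM, and the calls held under every alternative run, with mt-Nd5 at -3.25 without LARP7 replicate 1. mt-Nd1 had 67 and 39 counts with the LARP7 antibody, against 777 and 355 with IgG (-2.15, SE 0.48, edgeR adjusted p = 0.0137), but did not pass without LARP7 replicate 2 (-1.74, adjusted p = 0.0517). mt-Nd6, the mRNA encoded on the strand opposite to the other mRNAs, had 39 and 19 counts with the LARP7 antibody, against 2077 and 247 with IgG (-3.80, SE 0.78, edgeR adjusted p = 0.0137). The IgG libraries differed for mt-Nd6, at 162 and 39.1 CPM. Its log2 fold change changed to -2.43 on leaving out IgG replicate 1, to -4.43 on leaving out IgG replicate 2 and to -4.54 on leaving out LARP7 replicate 1. The call was lost without LARP7 replicate 2 (-3.30). As the strand setting of the counting is not given, reads antisense to mt-Nd6 cannot be told apart from its own. mt-Nd2 had 57 and 13 counts with the LARP7 antibody, against 597 and 183 with IgG, and missed the threshold (-2.10, SE 0.67, edgeR adjusted p = 0.0533). It was called lower under every alternative run (adjusted p at most 0.0379, DESeq2 0.0245) except without LARP7 replicate 2 (-1.35, adjusted p = 0.116), and without LARP7 replicate 1 it was at -3.67. mt-Nd3 had the mildest value of the mRNAs tested, 112 and 63 counts with the LARP7 antibody, against 600 and 202 with IgG (-0.86, SE 0.46, edgeR adjusted p = 0.189). mt-Nd4l was not tested, with 0 in both LARP7 libraries, against 102 and 0 with IgG; its posterior mean counts were 38.0 and 20.2 with the LARP7 antibody, against 168 and 58.3 with IgG.

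mt-Cytb, the complex III subunit cytochrome b, had 45 and 21 counts with the LARP7 antibody, against 689 and 273 with IgG. It fell 5.90-fold (edgeR: log2 fold change -2.56, SE 0.50, adjusted p = 0.00908) and kept its call under every alternative run, at -3.34 without LARP7 replicate 1. mt-Atp8, a small ATP synthase subunit whose model overlaps that of mt-Atp6, had 2 and 5 counts with the LARP7 antibody, against 118 and 70 with IgG (-3.55, SE 0.63, edgeR adjusted p = 0.00664), and also kept its call, at -4.24 without LARP7 replicate 2. mt-Atp8 passed the filter through the IgG libraries alone. mt-Co1, the catalytic subunit of cytochrome c oxidase, had 293 and 184 counts with the LARP7 antibody, against 2931 and 1372 with IgG (-1.91, SE 0.57, edgeR adjusted p = 0.0339). In CPM the IgG libraries were close for mt-Co1, at 229 and 217, above both LARP7 libraries at 76.2 and 42.2, but the call ended on leaving out LARP7 replicate 1 (-2.42), on leaving out LARP7 replicate 2 (-1.55) and on leaving out IgG replicate 1 (-1.87).

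**Figure D4:**
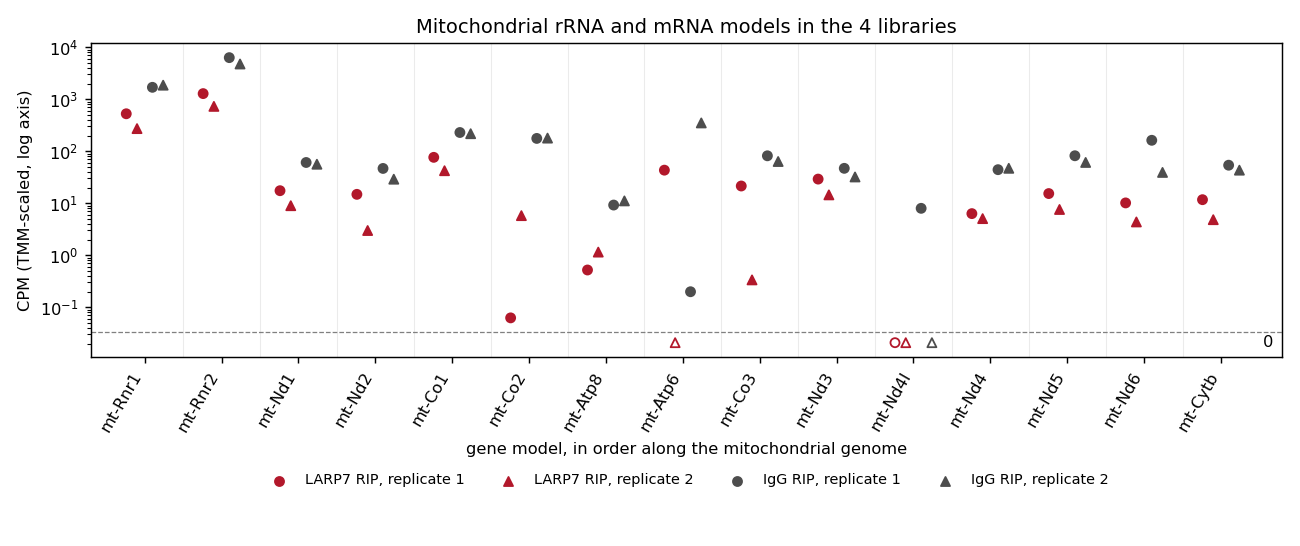
CPM on a log axis, after TMM scaling, of the 2 rRNA and 13 mRNA models of the mitochondrial genome in genome order, with LARP7 libraries in red, left of the IgG libraries in grey, and open symbols under the dashed line at 0. Both LARP7 libraries lay below both IgG libraries for both rRNAs and for 11 of the mRNAs; mt-Atp6 and mt-Nd4l overlapped.

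For mt-Atp6, mt-Co2 and mt-Co3, as for mt-Nd4l above, the values depended on how RSEM divided reads that map to several models. mt-Atp6, the ATP synthase proton channel subunit, had 166 and 0 counts with the LARP7 antibody, against 2.54 and 2210 with IgG. The pseudogene Gm10925 (GRCm38.p6 chromosome 1, 24613971 to 24614651), which has the same 681 nt length and lists mt-Atp6 among its synonyms, had 21.7 and 250 counts with the LARP7 antibody, against 1469 and 2.59 with IgG. Where one model was high in a library, the other was low. Added together, an alternative chosen after seeing the data, they had 188 and 250 counts with the LARP7 antibody, against 1472 and 2213 with IgG. Merged, the pair fell 4.37-fold (edgeR: log2 fold change -2.13, SE 0.64, adjusted p = 0.0362), whereas mt-Atp6 alone had -3.02 (SE 4.08, edgeR adjusted p = 0.647).

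mt-Co2, a cytochrome c oxidase subunit, had 0.24 and 25.1 expected counts with the LARP7 antibody, against 2256 and 1129 with IgG. It was called lower (-5.91, SE 1.31, edgeR adjusted p = 0.0266), though not by DESeq2 (adjusted p = 0.0634) nor with the replicate block and library totals (-7.67, adjusted p = 0.140). Its posterior mean counts were 82.0 and 49.2 with the LARP7 antibody (posterior SDs 50.8 and 30.3), against 2175 and 1002 with IgG. With posterior means in place of expected counts, another alternative chosen after seeing the data, the log2 fold change of mt-Co2 was -3.35 (adjusted p = 0.00291). Without LARP7 replicate 2 the log2 fold change was -13.41, so the size is not settled. mt-Co3, the remaining oxidase subunit of the mitochondrial genome, had 82.5 and 1.46 expected counts with the LARP7 antibody, against 1045 and 400.4 with IgG (-2.76, SE 1.62, edgeR adjusted p = 0.293). With posterior means it was called lower (-2.47, adjusted p = 0.00596), as it was without LARP7 replicate 1 (-8.22, adjusted p = 0.000551).

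Nuclear mRNAs for the same organelle were set beside these values. Of 74 nuclear subunit mRNAs of oxidative phosphorylation tested, taken by symbol pattern, the LARP7 libraries were higher for 6 and lower for 0 (14.5% and 9.69% over all models), at a median log2 fold change of 0.16. Of 57 mitochondrial ribosomal protein mRNAs tested, 9 rose and 0 fell (median 0.96). Of 22 mRNAs for processing and stability factors of mitochondrial RNA tested, 2 rose and 0 fell (median 0.44). With library totals 1, 0 and 0 were higher and 30, 10 and 6 lower, under a scaling that called 3.95% of all models higher and 47.1% lower. The mRNAs transcribed inside the mitochondrion thus had a lower median than these lists under both scalings (-2.70 and -4.22), a difference that was not tested.

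The named nuclear genes were the most abundant of each list. Atp5b, the catalytic subunit of ATP synthase, had 35.7 and 27.8 CPM with the LARP7 antibody, against 50.3 and 30.5 CPM with IgG (log2 fold change -0.35, edgeR adjusted p = 0.576). Cox8c and Cox6c, oxidase subunits, had log2 fold changes of 0.41 and 1.24 (edgeR adjusted p = 0.494 and 0.0545). Mrpl19, of the large ribosomal subunit, rose, with non-overlapping groups of 20.2 and 42.3 CPM with the LARP7 antibody, against 5.53 and 8.12 CPM with IgG (2.21, SE 0.47, edgeR adjusted p = 0.0120), but was not called with library totals (0.86). Mrps17 and Mrpl24 had 1.34 and 1.18 and passed no threshold (edgeR adjusted p = 0.0526 and 0.0938). Tfam, which packages mitochondrial DNA and starts its transcription, had 26.0 and 9.60 CPM with the LARP7 antibody, against 30.3 and 34.3 CPM with IgG (-0.86, edgeR adjusted p = 0.202). Fastk had 0.78 (edgeR adjusted p = 0.213) and the oligonucleotide-degrading nuclease gene Rexo2 had 0.12 (edgeR adjusted p = 0.879). The processing factors called higher, named after their values were seen, were the poly(A) polymerase gene Mtpap (2.72, edgeR adjusted p = 0.0129) and the tRNA-modifying GTPase gene Gtpbp3 (2.52, edgeR adjusted p = 0.0127). With library totals neither was called (1.26 and 1.14).

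The mitochondrial tRNAs were also set beside other models of their length. Of 1310 models of 50 to 80 nt outside the mitochondrial genome, 164 passed the filter, 14 of them through the LARP7 libraries alone. Of the 164, 82 were called higher and 3 lower with TMM scaling, where 14.5% and 9.69% of all models were, and their median log2 fold change was 2.13. The 3 lower, named after their values were seen, were Gm23935, Gm24270 and Gm24245, models of 57 nt with identical counts. Beside this median, mt-Ty lay far above, and the other 11 mitochondrial tRNA models tested lay below it, from -4.12 to 1.80. With library totals the median of the short models was 0.79 (41 higher and 10 lower, beside 3.95% and 47.1% of all models), and the other mitochondrial tRNAs again lay below it. Whether the mitochondrial tRNAs differ from other short RNAs was not tested.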

How the data were processed

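Small RNA libraries of a LARP7 RIP and an IgG RIP (2 libraries each) were analysed. The submitters' processing notes name RSEM, Bowtie2 and cutadapt and the mm10 build, without versions or settings. The deposited files give RSEM's expected count per gene model, in which multiply mapping reads are split between models, its posterior mean and SD, and TPM; the deposited TPM divides by an effective length, which was 6.83 to 20.7 nt for the tRNA models, so TPM was used only as an alternative. All 37 members were located in the RefSeq genes of assembly GRCm38.p6 (mm10), with equal lengths. No sequence of a member was at hand, so none is shown.

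Expected counts were rounded and fitted over all models with edgeR 4.0.16 in R 4.3.3: filterByExpr (minimum count 10), TMM factors (0.558 and 0.673 for LARP7, 1.85 and 1.44 for IgG), robust quasi-likelihood F tests, two-sided, Benjamini-Hochberg adjustment over 12234 models, threshold 0.05. SE is the unshrunk log2 fold change over the square root of F. CPM uses TMM-scaled sizes and SD covers 2 libraries. Library depth was 4411271 to 6994514 counts. Single values were compared by exact permutation of libraries (scipy 1.17.1). Alternatives were library totals, no filter, DESeq2 1.42.0, limma 3.58.1 on log2(TPM + 1), a replicate block, and each library left out. The fit was also run on data simulated from its own means and dispersions, which cannot show whether that model suits these libraries. All members were described, with full values for those at 10 or more counts in any library; from each nuclear list the 3 tested genes with the highest mean CPM were named. Members and lists were chosen with earlier results of these data known. Of 7 listed nuclear copies of mitochondrial sequence, 1 (Gm10925) was placed by the gene table and used. The symbol pattern for oxidative phosphorylation also took in Atp5sl.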

Additional observations from a re-analysis of the deposited data

How the results depend on the processing

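The single call of a higher model, mt-Ty, was made under all 11 alternatives of the fit, with log2 fold changes of 8.79 to 11.04 when a library was left out, and its share of mt-T counts lay 17.4 to 31.2 percentage points above IgG (main value 24.3). All these runs used the same libraries, and mt-Ty was chosen with its pattern known. It passed the main filter through the LARP7 libraries alone, so the repeated calls are descriptive only. The count of lower models was 13, and 20 with library totals, 21 with limma on TPM and 5 to 14 when a library was left out. Among all models 1772 were higher and 1185 lower, with 483 and 5759 by library totals, 660 and 197 without LARP7 replicate 2, 729 lower by DESeq2, and 87 higher of 2204 by limma on TPM. The untested log2 ratio of summed counts was -0.02 for tRNAs, -2.38 for rRNAs and -2.63 for mRNAs. With library totals these were -1.53, -3.85 and -4.09, and with summed TPM -2.77, -5.17 and -5.51. With DESeq2 size factors the tRNA value was 0.042. Leaving out a library gave -0.54 to 0.78 for tRNAs, -2.87 to -2.02 for rRNAs and -3.45 to -2.11 for mRNAs. The tRNA sum therefore has no settled direction between libraries.

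Signs turned for 7 models that had passed no threshold. With library totals, limma on TPM and the replicate block with library totals, mt-Tl1 had -0.13, -1.02 and -0.14, mt-Ti -0.70, -1.28 and -0.45, mt-Tm -0.53, -1.42 and -0.56, and mt-Th -1.18, -1.92 and -0.95. mt-Tv had -0.44 with limma on TPM. When a library was left out, mt-Th ranged over -0.32 to 1.38, mt-Ts2 over -1.29 to 0.68 and mt-Atp6 over -13.43 to 6.48. Beyond the scaling itself, the cause was not tested. Replicate numbers are shared across antibodies, but no label ties them to an animal or day, and with 2 pairs the correlation of same-numbered deviations over tested models was 0.20. With the replicate block 1 member was higher and 14 lower, mt-Ty at 9.79; mt-Nd2 was the added call. Of the 22 tRNAs, 8 were under 10 counts in every library and none of these passed the filter.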
